A study of Mus musculus with 36 samples.

Results

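The genes described here are 57 olfactory receptor genes of mouse chromosome 7 whose GENCODE vM21 symbols run from Olfr467 to Olfr541 without a suffix. They were chosen by symbol alone, out of 57010 gene identifiers in the count tables and 1107 olfactory receptor genes, and the rule left out 2 other genes of this range, which are not reported here. Their levels came from RNA bound to ribosomes with phosphorylated ribosomal protein S6 (pS6), captured with an antibody from the olfactory epithelium of 8-week-old wild-type C57BL/6J male mice. Each mouse spent 4 h without odor and then 90 min beside filter paper with 10 µL of odorant, or beside empty paper for the no-odor controls. The 36 libraries form 12 groups of 3 biological replicates in 3 sets, and the labels call each set a batch. The AD set holds no-odor controls, acetophenone, decanal and the acetophenone-decanal mixture. The OC set holds no-odor controls, octanal, cis-3-hexenol and their mixture. The FM set holds no-odor controls, a floral fragrance, a mint fragrance and a floral-mint mixture. Single odorants were undiluted and the binary mixtures were equal parts, so each component was present in a smaller volume in a mixture than alone. The fragrances were made by a supplier, and their components are not given in the sources used here.

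An olfactory sensory neuron expresses a single receptor gene out of the whole repertoire, and the receptor decides which odorants excite the cell. Odorant binding activates the G protein subunit encoded by Gnal and adenylyl cyclase 3, and cyclic AMP then opens a channel built from Cnga2, Cnga4 and Cngb1. Firing leads to phosphorylation of S6, so the transcripts of receptors on active neurons are enriched in a pS6 capture. Receptor genes are named by genomic order (Olfr numbers) and by sequence family (MOR numbers), and they fall into class I, the group shared with fish, and class II, which expanded in land vertebrates. In a bulk capture, fewer cells of a type and less RNA per cell cannot be told apart.

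By RefSeq family names, which matched 56 of the 57, the series was mostly 1 family and a few smaller ones. Family MOR204 had 29 members, families MOR267 and MOR268 had 2 and 6, and families MOR251, MOR252 and MOR253 had 4, 3 and 4. A further 6 class II members belong to MOR101, MOR103, MOR104 and MOR195. Olfr503 and Olfr504 carry the class I family names MOR34 and MOR40, which goes against calling the whole series class II. They had 5 and 0 counts over all libraries and entered no test. Olfr471 is annotated as an unprocessed pseudogene and had 3 counts. In the GRCm38 annotation the members lie in 3 runs separated by more than 1 Mb, with 2, 41 and 14 members. The run of 2 is Olfr520 and Olfr521.

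The coding sequences of the members on which the results turn are shown as a stretch of 90 bases that spans the Asp-Arg-Tyr motif (or its variant) after the third transmembrane helix and ends shortly after it, a landmark shared by olfactory receptors. Sequences are from GENCODE vM21 on GRCm38, 5′ to 3′ on the coding strand, and capitals mark bases that differ from the first sequence of each set. The first set is Olfr479 (MOR267-15, ENSMUSG00000043855) at chr7:108055269-108055358 (plus strand) and Olfr509 (MOR267-14, ENSMUSG00000049280) at chr7:108646200-108646289 (minus strand), shown because both rose with decanal and with octanal. They differ at 13 bases here, and their proteins are 72.0% identical.
Olfr479: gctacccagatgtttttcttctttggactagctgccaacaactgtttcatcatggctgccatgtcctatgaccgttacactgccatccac
Olfr509: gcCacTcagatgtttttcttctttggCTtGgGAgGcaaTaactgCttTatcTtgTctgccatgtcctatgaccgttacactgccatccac

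The second set is of family MOR268, shown because Olfr518 rose with both aldehydes, Olfr516 with octanal and Olfr517 with decanal. It holds Olfr518 (ENSMUSG00000046431) at chr7:108881167-108881256 (minus strand), Olfr516 (ENSMUSG00000062434) at chr7:108845628-108845717 (minus strand) and Olfr517 (ENSMUSG00000066240) at chr7:108868772-108868861 (minus strand). Olfr516 and Olfr517 differ from Olfr518 at 5 and 4 bases of the stretch. Over the whole protein, Olfr516 and Olfr518 are 89.5% identical, Olfr517 and Olfr518 84.1%, and Olfr516 and Olfr517 83.1%.
Olfr518: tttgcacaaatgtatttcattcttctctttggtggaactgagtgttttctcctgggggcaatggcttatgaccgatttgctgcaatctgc
Olfr516: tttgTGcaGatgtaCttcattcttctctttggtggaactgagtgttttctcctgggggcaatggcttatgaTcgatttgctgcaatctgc
Olfr517: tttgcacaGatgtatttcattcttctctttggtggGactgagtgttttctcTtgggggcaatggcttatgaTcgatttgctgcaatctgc

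The third set is of family MOR204, shown because both members rose with acetophenone and with all 3 fragrance exposures. Olfr491 (ENSMUSG00000094612) lies at chr7:108317187-108317276 (plus strand) and Olfr472 (ENSMUSG00000073893) at chr7:107903010-107903099 (plus strand), with 23 differing bases in the stretch and 79.0% identical proteins.
Olfr491: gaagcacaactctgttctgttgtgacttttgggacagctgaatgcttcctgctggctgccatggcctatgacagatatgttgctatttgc
Olfr472: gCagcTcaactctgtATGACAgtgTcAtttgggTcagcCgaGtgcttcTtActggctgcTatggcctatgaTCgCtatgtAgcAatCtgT

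The fourth set is the MOR204 pair Olfr477 (ENSMUSG00000096151) at chr7:107990658-107990747 (plus strand) and Olfr476 (ENSMUSG00000095301) at chr7:107967690-107967779 (plus strand), shown because each rose with 7 of the 9 exposures and the pair is close to identical. They differ at 5 bases here and at 45 of 930 aligned coding bases, with an identical run of up to 120 bases. Reads from such a run fit both genes, so their values are not fully separate measurements.
Olfr477: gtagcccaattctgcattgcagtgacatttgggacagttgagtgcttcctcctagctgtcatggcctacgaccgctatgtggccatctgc
Olfr476: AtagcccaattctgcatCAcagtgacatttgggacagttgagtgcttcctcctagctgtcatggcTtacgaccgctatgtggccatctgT

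The libraries held 16.0 to 26.4 M counts each. Receptor genes took 0.225% to 0.706% of them, and the 57 members 2083 to 10164 counts. The members held 4.77% to 8.52% of the receptor counts of a library. In the FM set that share was 8.05% ± 0.43 (SD, n = 3) in the controls and lower in all exposed groups, with 6.82% ± 0.42 for floral, 6.13% ± 0.44 for mint and 6.54% ± 0.21 for the mixture. In the AD set it was 5.85% ± 0.056 in the controls, 6.98% ± 0.27 with acetophenone, 7.24% ± 0.73 with decanal and 5.89% ± 0.24 with the mixture. In the OC set it was 6.04% ± 0.46 in the controls, 5.79% ± 1.06 after octanal, 5.22% ± 0.39 after cis-3-hexenol and 6.14% ± 0.22 after both. The libraries of acetophenone and decanal all lay above those of their controls, and those of cis-3-hexenol and of the 3 fragrance groups all lay below. The AD mixture, octanal and the OC mixture overlapped their controls. No test was made of this share.

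Without odor, the members differed widely in level. CPM, counts scaled to a common library total with TMM factors, were divided by the length of the merged exons and averaged over the 9 control libraries. Olfr536, of family MOR252, had the highest level at 14.2 CPM per kb (range 9.57 to 21.8), followed by Olfr541 (MOR253) at 7.12, Olfr524 (MOR103) at 4.05, Olfr533 (MOR252) at 3.93 and Olfr531 (MOR251) at 3.37. The ranges over control libraries of Olfr541, Olfr524, Olfr533 and Olfr531 overlap, so their order is within the spread of the controls. The range of Olfr541 (3.15 to 13.2) also overlaps that of Olfr536. By family, the median level was 1.23 CPM per kb for the 11 members of MOR251 to MOR253, 0.357 for the 8 of MOR267 and MOR268 and 0.155 for the 29 of MOR204. The lowest levels among members tested in all 3 sets were those of Olfr487 (0.117), Olfr488 (0.146), Olfr484 (0.155), Olfr495 (0.168) and Olfr478 (0.177), all of MOR204, with overlapping ranges.

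A member entered a test only if its counts passed a filter on low values, which 38 (AD set), 36 (OC set) and 35 (FM set) members did. In all, 40 members were tested in at least 1 set, 33 in all 3 sets, and 17 in none. Those 17 had 0 to 161 counts over all 36 libraries. A member that is low in the controls can pass the filter through the exposed group where it is high, so the counts of called members describe those that passed. All 11 members of MOR251 to MOR253 were tested, against 19 of 29 of MOR204 and 5 of 8 of MOR267 and MOR268.

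The first comparison is each odor against the controls of its set, which asks which receptors were on neurons activated by that odor. A member was called at an adjusted p under 0.05 in edgeR's quasi-likelihood test, with Benjamini-Hochberg adjustment over all genes tested. Over the 9 exposures, 18 of the 40 tested members rose with at least 1, 8 fell with at least 1, and 2 of these, Olfr506 and Olfr524, did both. The other 16 were never called. The members called most often were Olfr476, Olfr477 and Olfr491, each higher in 7 of the 9 exposures. Olfr472, Olfr508 and Olfr509 were higher in 5 and Olfr478, Olfr479 and Olfr525 in 4. Exposures of 1 set share controls, so these counts are not independent of each other.

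Acetophenone raised 9 of 38 tested members, where 12.7% of all tested receptor genes were called higher, and it lowered 0. Decanal raised 4 and lowered 4 of 38, against 7.6% and 6.68% of receptor genes. The acetophenone-decanal mixture raised 9 and lowered 4, against 13.2% and 6.45%. Octanal raised 7 and lowered 2 of 36, against 21.4% and 2.79%. Cis-3-hexenol raised 5 and lowered 0, against 7.92% and 0%. Their mixture raised 10 and lowered 1, against 23.1% and 0.815%. In the FM set, with 35 members tested, floral raised 6 and lowered 4 (9.68% and 1.77% of receptor genes), mint raised 8 and lowered 2 (12.8% and 1.53%) and the floral-mint mixture raised 7 and lowered 1 (11.9% and 1.42%). The median log2 change of the tested members was 0.30 with acetophenone, 0.01 with decanal, -0.05 with octanal, 0.55 with cis-3-hexenol, -0.01 with floral and -0.07 with mint. Over all tested receptor genes it was 0.01, -0.07, -0.03, 0.44, -0.07 and -0.06. Beside all tested genes, the 10.5% of members higher and 10.5% lower with decanal stand next to 10.8% and 11.5%. The 19.4% higher with octanal stand next to 17.9%, and the 10.5% lower with the AD mixture next to 10.4%. These shares are near the background. With octanal 5.56% of members were lower, against 14.4% of all genes. With the OC mixture 27.8% were higher and 2.78% lower, against 17.7% and 14.8%. Of all genes, 4.22% were higher with acetophenone, 10.9% with the AD mixture and 2.58% with cis-3-hexenol. It was 8.7% with floral, 7.1% with mint and 6.42% with the floral-mint mixture.

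**Figure D1:**
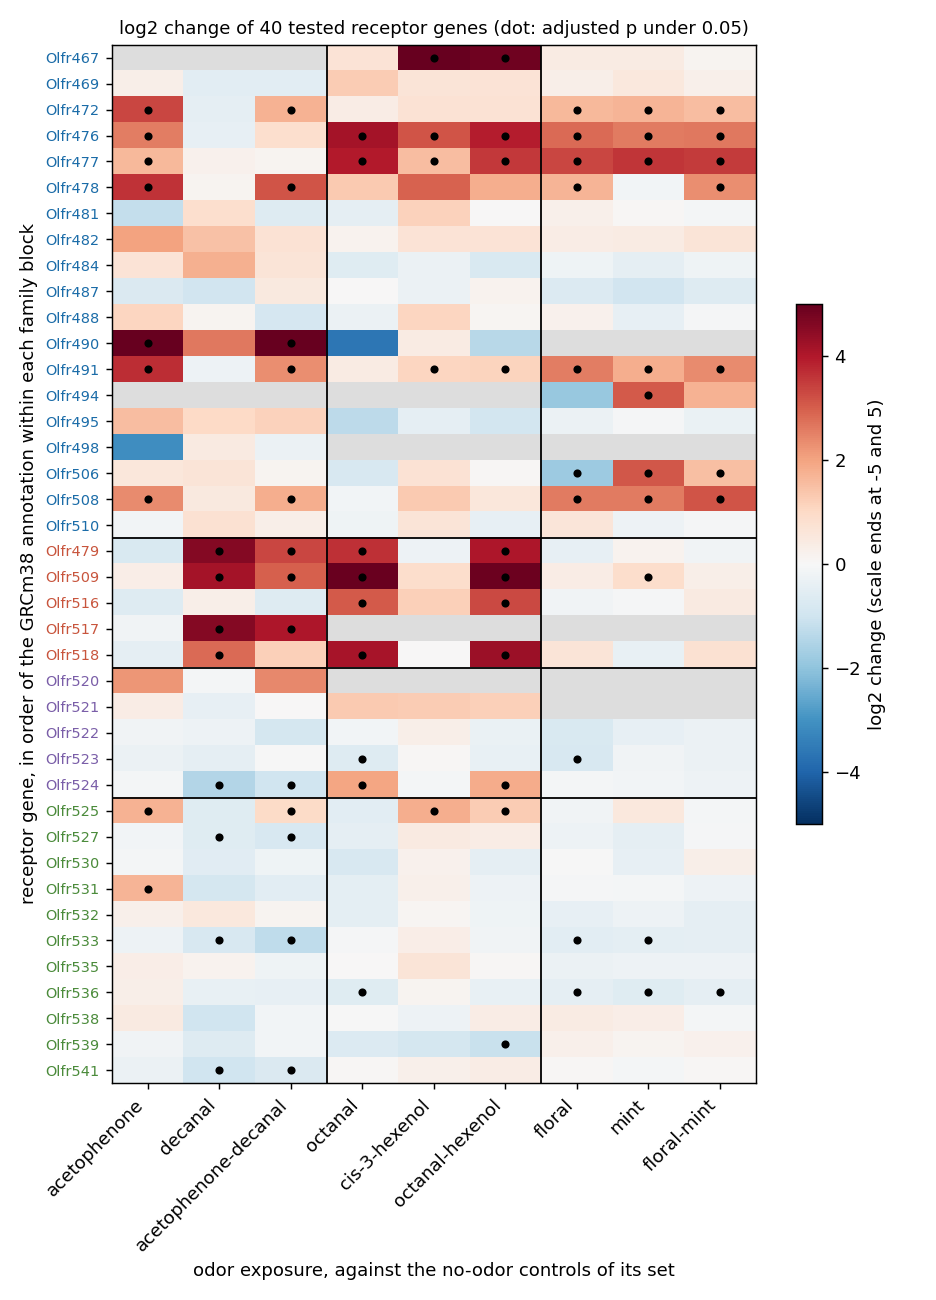
Log2 change of the 40 tested members (rows, grouped by family) with each of 9 exposures against the controls of its set (columns). Color gives the log2 change on a scale that ends at -5 and 5, dots mark an adjusted p under 0.05 and grey marks a member not tested in that set. In MOR267 and MOR268 all dots but 1, of mint, are in columns of exposures that hold an aldehyde, and in MOR204 the acetophenone column has 7 dots and the decanal column 0.

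The called members came from different families with different odors. With decanal, 4 of the 5 tested members of MOR267 and MOR268 rose and 0 of 17 of MOR204. One of the former is Olfr517, which passed the filter through the libraries where it is high. With octanal, 4 of the 4 tested members of MOR267 and MOR268 rose and 2 of 17 of MOR204. The latter is 11.8%, below the 17.9% of all genes and 21.4% of receptor genes called higher with octanal. The 2 are the near-identical Olfr476 and Olfr477. With acetophenone the order was the other way, with 0 of 5 of MOR267 and MOR268 and 7 of 17 of MOR204, among them Olfr490, which passed the filter in the same way. Floral, mint and their mixture raised 6, 7 and 7 of 17 MOR204 members and 0, 1 and 0 of 4 in MOR267 and MOR268. Among the MOR204 members raised by mint is Olfr494, which passed the filter through the mint libraries. Cis-3-hexenol, the OC mixture and the AD mixture raised 4, 4 and 5 of 17 MOR204 members. In MOR267 and MOR268 they raised 0 of 4, 4 of 4 and 3 of 5. Among these are Olfr467, Olfr490 and Olfr517, which passed the filter through libraries where they are high. In MOR251 to MOR253, acetophenone raised 2 of 11 members and cis-3-hexenol 1, while decanal lowered 3, octanal 1, floral 2 and mint 2. The AD mixture raised 1 and lowered 3, the OC mixture raised 1 and lowered 1, and the floral-mint mixture lowered 1. The octanal fall is 9.09% of these members, where 14.4% of all genes fell. Of all genes, 10.8% rose with decanal, 4.22% with acetophenone, 10.9% with the AD mixture, 2.58% with cis-3-hexenol and 17.7% with the OC mixture. It was 8.7% with floral, 7.1% with mint and 6.42% with their mixture. All-gene falls were 11.5% with decanal, 10.4% with the AD mixture and 14.8% with the OC mixture. They were 5.35% with floral, 4.07% with mint and 3.22% with the floral-mint mixture. These are counts, and no difference between families was tested.

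Olfr479 and Olfr509, the MOR267 pair, rose with both aldehydes. Octanal and decanal are straight-chain aldehydes that differ in chain length. Olfr479 had 4.17, 5.95 and 4.34 CPM in the AD controls and 110, 137 and 101 CPM with decanal, for a change of 4.59 ± 0.27 on the log2 scale (SE, adjusted p = 2.33e-07). In the OC set it had 3.12, 5.96 and 3.61 CPM in the controls and 55.2, 44.2 and 58.3 with octanal, for a change of 3.64 ± 0.23 on the log2 scale (SE, adjusted p = 7.74e-08). Every aldehyde library lay far above every control library, while the 3 cis-3-hexenol libraries, at 3.02, 4.48 and 2.98 CPM, lay near the controls, 2 of them just below the lowest.

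Olfr509 had 3.26, 4.06 and 3.04 CPM in the AD controls and 62.0, 68.5 and 56.6 with decanal, for a change of 4.17 ± 0.18 on the log2 scale (SE, adjusted p = 6.98e-09). In the OC controls it had 0.892, 2.01 and 3.87 CPM and with octanal 45.1, 57.3 and 98.8, for a change of 4.94 ± 0.38 on the log2 scale (SE, adjusted p = 4.32e-07). The groups did not overlap in either set. Olfr509 also rose with mint, by 0.89 ± 0.23 on the log2 scale (SE, adjusted p = 0.0234), from 2.17, 2.82 and 3.31 CPM to 3.78, 5.69 and 5.84 CPM. That call ended without FM control library 1, FM control library 2 or mint library 2 (adjusted p = 0.0511 to 0.114). Olfr509 has a non-coding stretch of 204 bases that is 96.6% identical to one in another receptor gene. Summed into a feature of 40 genes linked by such matches, it still rose with decanal (0.47) and octanal (1.53), and its calls with mint and in 3 comparisons among the AD exposures ended.

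In MOR268, Olfr518 rose with both, from 1.23, 1.85 and 2.48 CPM to 14.7, 15.0 and 9.86 with decanal (log2 change 2.83, SE 0.48, adjusted p = 0.00107), and from 1.04, 3.96 and 1.38 CPM to 37.0, 25.6 and 46.6 with octanal (4.11, SE 0.38, adjusted p = 2.95e-06). Olfr516, its closest relative shown above, rose with octanal, from 0.198, 1.65 and 0.984 CPM to 7.41, 8.68 and 7.24 (3.07, SE 0.45, adjusted p = 0.000143). With decanal Olfr516 had 1.58, 1.94 and 2.27 CPM against 1.43, 1.23 and 2.09 in the controls, a log2 change of 0.29 with a 95% interval of -0.86 to 1.43.

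Olfr517 was high with decanal. It had 1, 3 and 4 counts in the AD controls and 87, 40 and 41 counts with decanal, with no overlap. It had 6, 8 and 5 counts with octanal and 0, 0 and 8 in the OC controls, and it did not pass the filter there. It passed in the AD set through the decanal and mixture libraries, so no p is given for it. The other 3 members of MOR268, Olfr512, Olfr514 and Olfr519, had 123, 4 and 32 counts over all libraries and were in no test.

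**Figure D2:**
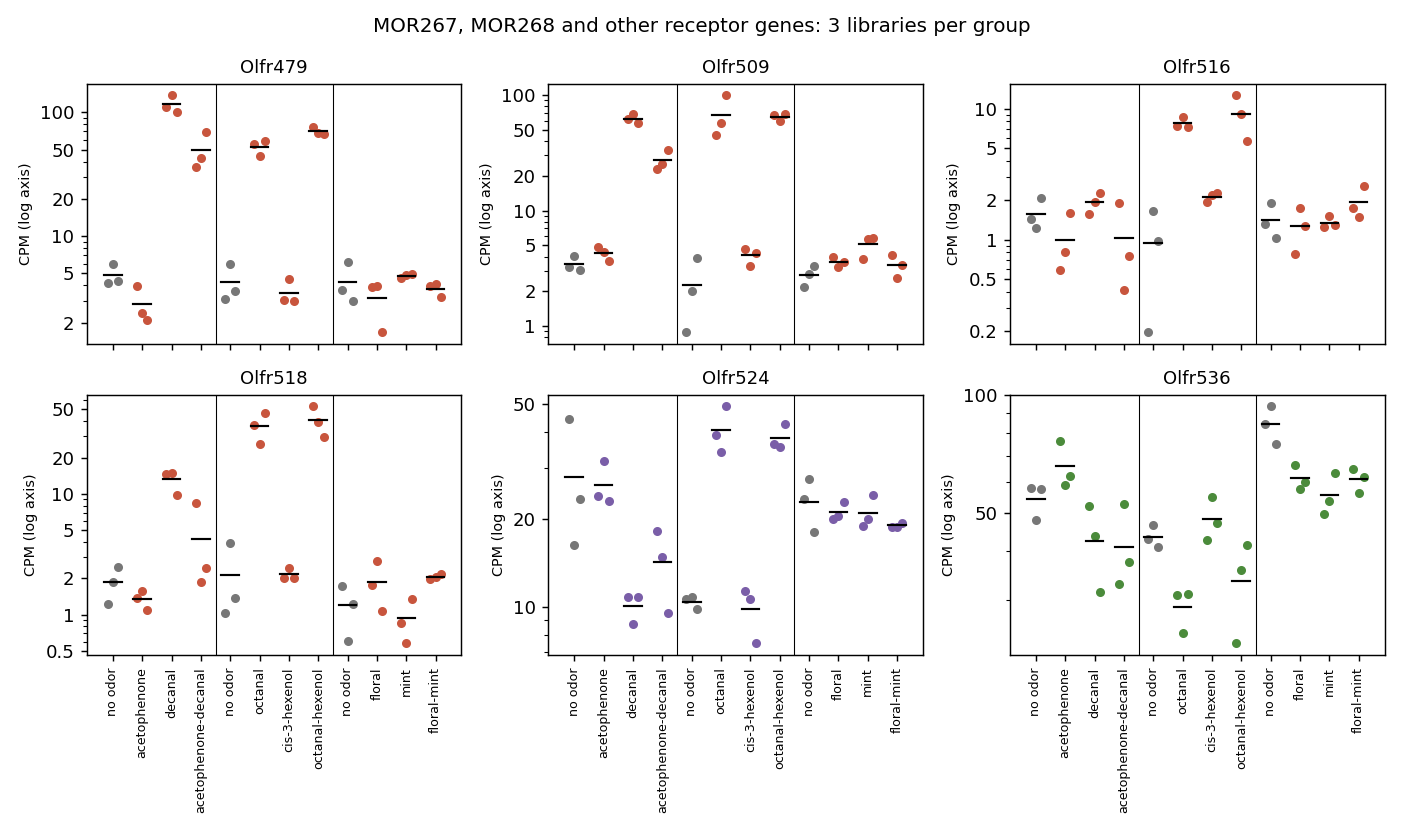
CPM per library (log axis) of Olfr479, Olfr509, Olfr516, Olfr518, Olfr524 and Olfr536 in the 12 groups. Points are the 3 libraries of a group, bars their mean, grey points the no-odor controls, and vertical lines separate the AD, OC and FM sets. Against the controls of the same set, Olfr479, Olfr509 and Olfr518 are high with decanal and octanal, and Olfr516 with octanal. Olfr524 is low with decanal and high with octanal against the controls of each set, and its controls differ between the AD and OC sets.

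Whether the responses to octanal and decanal differed was tested in a joint fit of the AD and OC sets (24 libraries, 8 groups), as the log2 change with octanal minus that with decanal, each against its own controls. The odorants were used in different batches, so part of any difference cannot be told apart from the batch. Of 40 members tested, 7 were higher with octanal and 2 lower, against 15.6% and 4.12% of receptor genes and 16.1% and 13.1% of all genes. Olfr524 had the smallest p, with a difference of 3.41 (SE 0.38, adjusted p = 1.18e-06). Olfr476 and Olfr477 differed by 4.53 (SE 0.53, adjusted p = 2.13e-06) and 3.72 (SE 0.48, adjusted p = 5.98e-06), and Olfr516 by 2.75 (SE 0.71, adjusted p = 0.00528).

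The MOR267 pair and Olfr518 showed smaller differences. For Olfr509 the difference was 0.74 with a 95% interval of -0.15 to 1.63, and for Olfr518 1.25 with an interval of -0.05 to 2.54, neither called. For Olfr479 it was -0.97 (SE 0.36, adjusted p = 0.0451), a smaller rise with octanal than with decanal. That call ended without any 1 of 7 libraries (AD controls 1 and 3, decanal 1 and 2, OC control 2, octanal 1 and 2), with adjusted p from 0.0597 to 0.212. It also ended with a block for replicate number (adjusted p = 0.0549). Olfr517, which passed the filter through the decanal and AD mixture libraries, was not called, at a difference of -3.52. Olfr469 and Olfr541 were called higher (1.77 and 1.02, adjusted p = 0.0263 and 0.0202). The call of Olfr469 ended without AD control 3, decanal 2, OC control 2 or 3 or octanal 1 (log2 0.91 to 1.74, adjusted p = 0.0521 to 0.219), that of Olfr541 without decanal 3, OC control 1 or 3 or octanal 3 (0.052 to 0.0609), and both ended when scaled to the median receptor gene (0.0819 and 0.0933).

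Olfr490 and Olfr494 were also called in this difference, but on very few counts. Olfr494 had 0 counts in every decanal library and in every OC control library, and 7, 3 and 2 counts with octanal. Olfr490 had 5, 0 and 2 counts with decanal and 1, 0 and 0 with octanal, and its call ended without decanal library 1 or OC control library 2 (adjusted p = 0.0589 to 0.0947). No size is given for either.

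**Figure D3:**
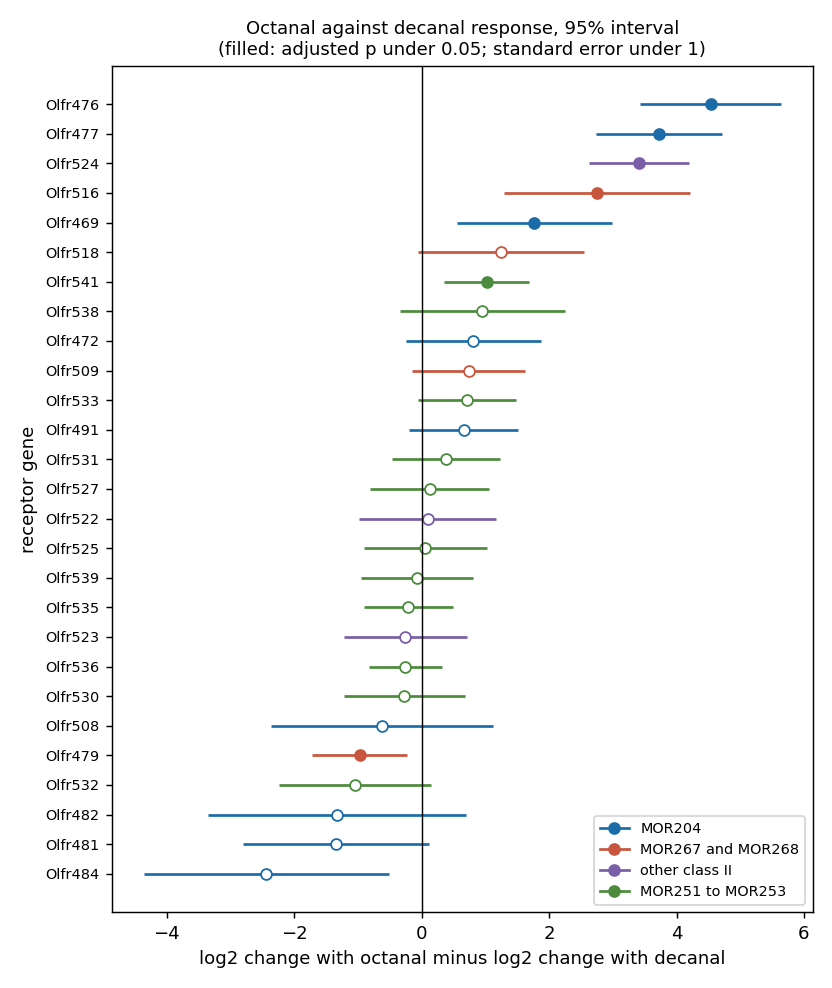
Difference of log2 change, octanal minus decanal, each against its own controls (points) with 95% intervals (bars) for the 27 members with a standard error under 1. Filled points have an adjusted p under 0.05, and colors give the family. Olfr476, Olfr477, Olfr524, Olfr516, Olfr469 and Olfr541 are called above 0 and Olfr479 below it, and 13 members with a standard error of 1 or more are left out.

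Olfr524, which RefSeq names MOR103-14P and GENCODE vM21 annotates as protein coding, moved in opposite directions with the aldehydes. It had 10.6, 10.8 and 9.84 CPM in the OC controls and 38.9, 34.2 and 48.9 with octanal, for a change of 1.96 ± 0.18 on the log2 scale (SE, adjusted p = 3e-06). In the AD set it had 44.3, 16.3 and 23.5 CPM in the controls and 10.8, 8.69 and 10.8 with decanal, for a change of -1.48 ± 0.31 on the log2 scale (SE, adjusted p = 0.00435). The groups did not overlap in either set, but the AD controls spread widely and all lay above the OC controls. With cis-3-hexenol it had 11.4, 10.6 and 7.5 CPM, a log2 change of -0.08 with an interval of -0.47 to 0.31.

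Olfr476 and Olfr477, the near-identical MOR204 pair, rose with every exposure other than decanal and the acetophenone-decanal mixture. Olfr477 had 2.78, 3.66 and 2.49 CPM in the OC controls and 61.7, 36.7 and 43.0 with octanal, for a change of 3.98 ± 0.30 on the log2 scale (SE, adjusted p = 3.1e-07). In the FM set it went from 3.70, 5.45 and 3.59 CPM to 50.2, 48.3 and 31.4 with floral (3.35, SE 0.22, adjusted p = 2.97e-07) and to 41.7, 56.4 and 53.7 with mint (3.57, SE 0.22, adjusted p = 1.11e-07). All octanal, floral and mint libraries lay above all controls by a wide margin.

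Olfr477 rose less with the other odors. With cis-3-hexenol it had 12.7, 5.92 and 7.72 CPM (log2 change 1.55, SE 0.29, adjusted p = 0.00782). With acetophenone it had 6.64, 18.5 and 8.01 CPM against 3.62, 2.91 and 4.34 (1.60, SE 0.35, adjusted p = 0.0181), a call that ended without AD control library 1, AD control library 2 or acetophenone library 2 (adjusted p = 0.0527 to 0.105, log2 change 1.00 to 1.60) and when scaled to the median receptor gene (adjusted p = 0.0645). With decanal it had 4.91, 3.53 and 4.34 CPM, with 1 library above the highest control and the others within their range.

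Olfr476 had 0.694, 1.48 and 0.590 CPM in the OC controls, 16.5, 18.8 and 14.2 with octanal (log2 change 4.16, SE 0.29, adjusted p = 1.93e-07) and 8.44, 9.45 and 6.92 with cis-3-hexenol (3.16, SE 0.29, adjusted p = 1.91e-05). In the AD set it went from 1.59, 3.84 and 1.17 CPM to 12.2, 15.1 and 11 with acetophenone (2.54, SE 0.40, adjusted p = 0.00237) and had 1.12, 2.25 and 1.63 with decanal. In the FM set it rose by 2.82 with floral (SE 0.24, adjusted p = 4.18e-06) and by 2.61 with mint (SE 0.24, adjusted p = 6.71e-06). No exposed library of these rises overlapped its controls. With the counts of the pair summed into 1 feature, the log2 changes were 4.05 with octanal, 2.15 with cis-3-hexenol, 2.03 with acetophenone, 3.19 with floral and 3.31 with mint, all still called.

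Olfr491 and Olfr472 were the MOR204 members with the largest levels under acetophenone. Olfr491 had 3.70, 6.17 and 6.82 CPM in the AD controls and 48.9, 94.0 and 74.5 with acetophenone, for a change of 3.71 ± 0.28 on the log2 scale (SE, adjusted p = 1.08e-05). Olfr472 had 3.62, 4.06 and 4.17 CPM in the AD controls and 38.6, 56.7 and 23.5 with acetophenone, for a change of 3.32 ± 0.39 on the log2 scale (SE, adjusted p = 0.00033). With decanal both lay at or near their controls, at 3.22, 5.67 and 5.03 CPM for Olfr491 and 1.74, 5.01 and 1.92 for Olfr472.

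The fragrances raised both as well. Olfr491 went from 6.69, 5.07 and 5.10 CPM to 29.4, 43.8 and 25.8 with floral (log2 change 2.55, SE 0.23, adjusted p = 6.49e-06) and to 17.4, 18.8 and 23.3 with mint (1.81, SE 0.23, adjusted p = 0.000143). Olfr472 went from 5.20, 4.09 and 4.86 CPM to 13.7, 18 and 12.1 with floral (1.63, SE 0.24, adjusted p = 0.000744) and to 9.0, 16.5 and 21.1 with mint (1.71, SE 0.24, adjusted p = 0.000457). In the OC set Olfr491 rose by 1.06 with cis-3-hexenol (SE 0.29, adjusted p = 0.0417). That call ended without any 1 of the 3 OC control or 3 cis-3-hexenol libraries (adjusted p = 0.0643 to 0.14). It also ended with a block for replicate number (0.0522) and when libraries were scaled to the median receptor gene.

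Olfr508 rose with acetophenone, floral and mint at lower levels, and Olfr478 with acetophenone and floral. Olfr508 had 0.636, 0.794 and 1.22 CPM in the AD controls and 5.63, 4.27 and 3.67 with acetophenone (log2 change 2.35, SE 0.50, adjusted p = 0.0145), and it rose by 2.60 with floral (SE 0.34, adjusted p = 0.000266) and by 2.59 with mint (SE 0.35, adjusted p = 0.000252). Olfr478 had 3, 29 and 3 counts in the AD controls and 187, 80 and 171 counts with acetophenone (3.61, SE 0.81, adjusted p = 0.02), and it rose by 1.70 with floral (SE 0.47, adjusted p = 0.027). With mint Olfr478 had 0.192, 0.662 and 0.449 CPM against 0.712, 0.488 and 0.239 in the controls, which overlapped, a difference of -0.13 with a 95% interval of -1.27 to 1.02. The acetophenone calls ended without AD control library 1 or 2 for Olfr508 (adjusted p = 0.0547 to 0.0714) and without AD control library 1 or 3 for Olfr478 (adjusted p = 0.0627 to 0.0876). The floral call of Olfr478 ended without FM control library 2 or 3 or floral library 1 or 2 (adjusted p = 0.0516 to 0.114).

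Within the AD or the OC set, some MOR204 members were high with a single odor and its mixture. Olfr490 had 1, 0 and 0 counts in the AD controls and 115, 70 and 92 counts with acetophenone. The depth-scaled ratio of the 277 summed counts to the 1 control count was 281, with a 95% interval for counting error only of 50.1 to 11146. This ratio rests on the AD controls alone, which had a mean of 0.013 CPM. Over the 9 control libraries of the 3 sets the mean was higher, at 0.138 CPM. Olfr490 had 5, 0 and 2 counts with decanal and 79, 42 and 38 with the mixture. It was also tested in the OC set, where it was called lower with octanal than with cis-3-hexenol. That call ended without any octanal library or without cis-3-hexenol library 2 or 3. Since Olfr490 had next to no counts in the AD controls, it passed the filter there through the acetophenone and mixture libraries, and no test against the controls is given.

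Olfr467 did the same for cis-3-hexenol. It had 0, 12 and 6 counts in the OC controls, 8, 14 and 9 with octanal, and as many as 301, 248 and 270 with cis-3-hexenol. The log2 change with cis-3-hexenol was 5.18. Olfr467 passed the filter in the OC set through the cis-3-hexenol and mixture libraries, so no p is given for it. Outside the OC set it had 0 to 23 counts in any library. Olfr467 is 96.2% identical over 936 bases to the pseudogene Olfr471, which had 3 counts in all libraries together.

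Olfr506 separated the fragrances. It had 1.03, 1.31 and 0.877 CPM in the FM controls, 8.62, 10.1 and 9.15 with mint and 0.351, 0.272 and 0.287 with floral. The log2 change was 3.11 with mint (SE 0.22, adjusted p = 5.45e-07) and -1.81 with floral (SE 0.30, adjusted p = 0.00163), and the 3 groups did not overlap. Floral against mint, the difference was -4.92 (SE 0.27, adjusted p = 3.99e-08). Floral against mint called 0 members higher and 2 lower, against 2.72% and 4.37% of receptor genes. The other was Olfr494, with 9, 22 and 30 counts with mint, 0, 2 and 0 with floral and 2, 4 and 3 in the controls. Olfr494 passed the filter through libraries where it is high, those of mint, so no p is given for it. Its call between floral and mint ended without floral library 1, floral library 3 or mint library 3, and with a block for replicate number. Its call with mint over the controls ended without FM control library 1 or 3.

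**Figure D4:**
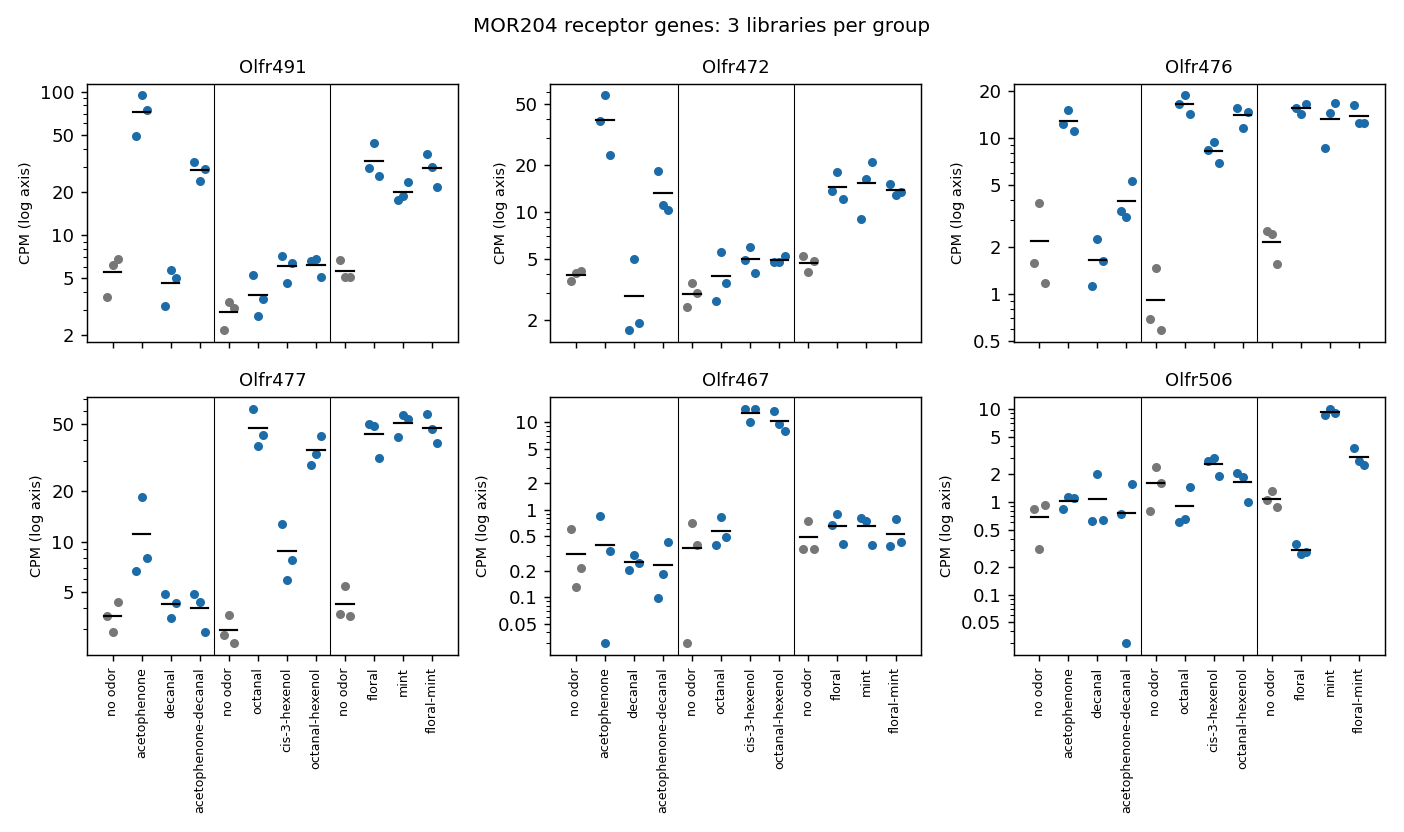
CPM per library (log axis) of the MOR204 members Olfr491, Olfr472, Olfr476, Olfr477, Olfr467 and Olfr506 in the 12 groups. Points are the 3 libraries of a group, bars their mean, grey points the no-odor controls, vertical lines separate the sets, and values under 0.03 CPM are drawn at 0.03. Olfr491 and Olfr472 are high with acetophenone and the fragrances, Olfr476 and Olfr477 with octanal and the fragrances, Olfr467 with cis-3-hexenol and its mixture, and Olfr506 with mint.

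In MOR251 to MOR253, Olfr525 and Olfr531 were those called higher. Olfr525 had 2.98, 3.61 and 2.87 CPM in the AD controls and 11.4, 13.2 and 7.29 with acetophenone, for a change of 1.75 ± 0.27 on the log2 scale (SE, adjusted p = 0.002). It also rose with cis-3-hexenol, from 2.53, 3.37 and 2.23 CPM to 12.7, 9.37 and 6.44 (1.81, SE 0.34, adjusted p = 0.00779). Olfr531 had 12.7, 19.0 and 13.7 CPM in the AD controls and 39.7, 78.4 and 28.2 with acetophenone, for a change of 1.69 ± 0.29 on the log2 scale (SE, adjusted p = 0.00458). Neither overlapped its controls. With the mixture of acetophenone and decanal, Olfr531 had 10.2, 10.8 and 10.7 CPM, below every control library, a log2 change of -0.51 that was not called.

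Members of these families also fell. Olfr536, the member with the most counts, had 84.4, 93.6 and 75.0 CPM in the FM controls, 66.3, 57.6 and 60.2 with floral (log2 change -0.46, SE 0.10, adjusted p = 0.0101) and 49.7, 53.6 and 63.2 with mint (-0.60, SE 0.10, adjusted p = 0.00193). In the OC set Olfr536 had 43.0, 46.6 and 41.0 CPM in the controls and 30.9, 24.7 and 31.1 with octanal (-0.59, SE 0.18, adjusted p = 0.023), a call that ended without OC control library 1 or 2 or octanal library 2 (adjusted p = 0.0529 to 0.0777). Olfr541 fell with decanal, from 11.2, 10.0 and 9.95 CPM to 5.62, 6.29 and 3.75 (-0.99, SE 0.23, adjusted p = 0.00658). The exposed libraries lay below all controls in each of these.

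Olfr533, Olfr527 and Olfr523 fell as well. Olfr533 fell by 0.80 with decanal (adjusted p = 0.0198), by 0.52 with floral (adjusted p = 0.033) and by 0.50 with mint (adjusted p = 0.046). These calls ended without AD control 3 or decanal 1 or 2 (adjusted p = 0.0696 to 0.0827), without FM control 1 or floral 1 or 3 (0.0954 to 0.187), and without FM control 1 or 3 or mint 1 or 2 (0.0614 to 0.242). Scaled to the median receptor gene, the floral and mint calls ended too (0.056 and 0.0737). The mint call also ended with a block for replicate number (0.0617). Olfr527 fell by 0.61 with decanal (adjusted p = 0.0426), a call that ended without any AD control or without decanal 2 or 3 (adjusted p = 0.0607 to 0.146). It also ended without the filter on low counts (0.0562), with a block for replicate number (0.0605) and when scaled to the median receptor gene (0.183). Olfr523, of MOR104, fell by 0.81 with floral (SE 0.16, adjusted p = 0.00499) and by 0.66 with octanal (adjusted p = 0.0355), the second ending without OC control 1 or 2 or octanal 1 or 2 (adjusted p = 0.0792 to 0.111). With the AD mixture Olfr533 had 3.87, 5.46 and 5.76 CPM against 11.8, 10.1 and 14.2 in the controls, for a change of -1.25 ± 0.23 on the log2 scale (SE, adjusted p = 0.00191). With the OC mixture Olfr539, of MOR253, had 3.02, 3.36 and 3.20 CPM against 6.54, 7.62 and 6.76, for a change of -1.12 ± 0.29 on the log2 scale (SE, adjusted p = 0.00801).

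The mixtures were compared with their components, in which each component had a larger volume. The acetophenone-decanal mixture raised members of both components' groups. Olfr509 had 22.8, 25.4 and 33.3 CPM with the mixture (log2 change against the controls 2.98, SE 0.18, adjusted p = 3.26e-07) and Olfr479 35.9, 42.5 and 69.5 (3.36, SE 0.27, adjusted p = 4.75e-06). Olfr491 had 32.1, 23.6 and 28.8 CPM (2.34, SE 0.27, adjusted p = 0.000109) and Olfr472 18.4, 11.1 and 10.2 (1.75, SE 0.38, adjusted p = 0.00541). All 4 lay above the controls and below the component that raised them most.

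Against acetophenone, the mixture had 4 members higher and 10 lower, against 5.53% and 12.4% of receptor genes. Among those lower, the log2 difference was -1.36 for Olfr491 (SE 0.25, adjusted p = 0.0013), -2.20 for Olfr531 (SE 0.30, adjusted p = 0.000189), -1.69 for Olfr476 (SE 0.38, adjusted p = 0.00526) and -1.58 for Olfr472 (SE 0.36, adjusted p = 0.00534). Olfr509, Olfr479, Olfr517 and Olfr518 were higher, the last of them not without acetophenone library 1 or 3 or mixture library 1 (adjusted p = 0.0589 to 0.184). Of these, Olfr517 passed the filter through the decanal and mixture libraries. With libraries scaled to the median receptor gene the split was 4 higher and 6 lower. The median receptor gene differed by -0.24. In the same comparison 11 of 19 transduction genes were lower and 2 higher, 4 of 6 mature neuron markers were lower and 4 of 4 red blood cell markers were higher, where 14.4% of all genes were lower and 11.3% higher. The part of these lists in the members' differences was not tested.

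Against decanal, the mixture had 4 members higher and 2 lower, against 5.41% and 0.691% of receptor genes. The log2 difference was -1.20 for Olfr509 (SE 0.16, adjusted p = 0.00169) and 2.60 for Olfr491 (SE 0.28, adjusted p = 0.000371), with no overlap between the libraries. The count of 6 fell to 3 without decanal library 1, decanal library 3 or mixture library 1. Olfr479 was lower (-1.23, adjusted p = 0.0393), a call that ended without any decanal library or without mixture 1 or 2 (adjusted p = 0.0852 to 0.248). It also ended with a block for replicate number (0.111). Olfr490, Olfr525 and Olfr472 were higher. Olfr490 passed the filter through the acetophenone and mixture libraries, so no p is given for it. Its call ended without decanal 3 or mixture 1. The call of Olfr525 ended without decanal 1 or 2 or any mixture library (adjusted p = 0.069 to 0.189) and with a block for replicate number (0.0805). That of Olfr472 ended without decanal 1 or 3 or mixture 1 (0.154 to 0.213).

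Olfr476 and Olfr477, which acetophenone raised, were not called with the mixture. Olfr476 had 3.43, 3.12 and 5.34 CPM with the mixture, a log2 change of 0.85 with a 95% interval of 0.01 to 1.70. Olfr477 had 4.85, 4.36 and 2.88 CPM, a log2 change of 0.15 with an interval of -0.61 to 0.92. Olfr477 was lower with the mixture than with acetophenone (-1.45, SE 0.35, adjusted p = 0.0082). Directly compared, acetophenone and decanal differed at 18 members, 13 higher and 5 lower with acetophenone. These are 34.2% and 13.2% of the tested members, against 21.2% and 9.68% of receptor genes, and the share over all genes is not given. The log2 difference was 3.96 for Olfr491, 3.78 for Olfr472, 2.36 for Olfr525 and 2.57 for Olfr531. It was -3.86 for Olfr509, -5.36 for Olfr479, -3.28 for Olfr518 and -4.75 for Olfr517. Of these, Olfr517 passed the filter through the libraries where it is high. Among those higher, the calls of Olfr536, Olfr538 and Olfr541 ended when scaled to the median receptor gene (adjusted p = 0.143, 0.0814 and 0.128). With acetophenone 11 of 19 transduction genes were higher and 1 lower, and 4 of 6 mature neuron markers were higher. All 4 of 4 red blood cell and 4 of 4 neutrophil markers were lower. The part of these lists in the members' differences was not tested.

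The octanal and cis-3-hexenol mixture differed from octanal at 1 member, which was higher, against 1.28% of receptor genes. That member was Olfr467, with 279, 200 and 192 counts in the mixture (log2 difference 4.18). It passed the filter through the cis-3-hexenol and mixture libraries, so no p is given. Olfr509, Olfr479, Olfr476 and Olfr477, which octanal raised, stood near their octanal levels. For Olfr509 the difference was -0.05 with a 95% interval of -0.68 to 0.58, for Olfr479 0.42 with an interval of 0.00 to 0.83, for Olfr476 -0.24 with -0.73 to 0.25 and for Olfr477 -0.44 with -0.97 to 0.09. Against the controls, the mixture raised Olfr479 to 76.2, 67.8 and 66.3 CPM (log2 change 4.05, SE 0.23, adjusted p = 2.35e-08) and Olfr509 to 66.9, 59.6 and 67.9 CPM (4.89, SE 0.38, adjusted p = 4.56e-07), above every control library.

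Against cis-3-hexenol, the OC mixture had 7 members higher and 0 lower, against 13.5% and 1.75% of receptor genes. Olfr479 was higher by 4.31 (SE 0.23, adjusted p = 1.49e-08), Olfr509 by 3.99 (SE 0.35, adjusted p = 4.73e-06), Olfr518 by 4.23 (SE 0.37, adjusted p = 5.2e-06) and Olfr524 by 1.95 (SE 0.18, adjusted p = 8.86e-06). Octanal against cis-3-hexenol had 7 members higher and 8 lower, against 15.9% and 12.1% of receptor genes. Among those lower, the log2 difference was -4.50 for Olfr467 and -2.34 for Olfr525 (SE 0.35). Of these, Olfr467 passed the filter through the cis-3-hexenol and mixture libraries. Olfr481, of MOR204, had 2.10, 2.30 and 3.19 CPM with octanal and 7.17, 8.63 and 7.72 with cis-3-hexenol, a difference of -1.63 (SE 0.39, adjusted p = 0.00991), and Olfr536 differed by -0.74 (SE 0.18, adjusted p = 0.0117), a call that ended without cis-3-hexenol library 2 (adjusted p = 0.0684) and when scaled to the median receptor gene (-0.34, adjusted p = 0.255). With libraries scaled to the median receptor gene, which differed by -0.45, the split was 7 and 4.

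The floral-mint mixture differed from floral at 1 member, higher, against 2.13% of receptor genes, and from mint at 1, lower, against 0.826%. Both were Olfr506, which had 3.82, 2.78 and 2.51 CPM in the mixture. The log2 difference was 3.30 against floral (SE 0.27, adjusted p = 1.28e-05) and -1.61 against mint (SE 0.20, adjusted p = 0.00292), and no library of the 3 groups overlapped. Olfr477, Olfr476, Olfr491, Olfr508 and Olfr472 rose with floral, with mint and with the mixture. Between floral and mint the difference was -0.22 for Olfr477, with a 95% interval of -0.63 to 0.18, and 0.74 for Olfr491, with an interval of 0.29 to 1.18 (adjusted p = 0.316).

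Scaling moved calls in comparisons of all 3 sets and in the octanal against decanal difference. With libraries scaled to the median receptor gene, 24 of the 157 member calls were lost. The median receptor gene lay above its controls by 0.44 with cis-3-hexenol and by 0.24 with the OC mixture, where the median of all genes differed by 0.05 and -0.05. With libraries scaled to the median receptor gene, cis-3-hexenol gave 5 higher and 2 lower members, the OC mixture 9 and 3, and the AD mixture 8 and 1.

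Other genes of the pathway rose in the same captures. Of 19 tested genes for odor transduction and receptor export, the number called higher was 16 for acetophenone, 9 for decanal and 10 for the AD mixture, where 4.22%, 10.8% and 10.9% of all tested genes were called higher. It was 19 for octanal, 12 for cis-3-hexenol and 19 for the OC mixture, against 17.9%, 2.58% and 17.7% of all genes. Floral gave 8, mint 15 and the floral-mint mixture 13, against 8.7%, 7.1% and 6.42%. None of the 19 was called lower in these 9 comparisons. The median log2 change of the list ran from 0.29 (floral) to 1.46 (OC mixture), and that of all genes from -0.05 to 0.05. Gnal, the G protein subunit that couples to the receptors, was called higher in 7 of the 9, all but floral and the floral-mint mixture. The 6 markers of mature olfactory neurons (Omp, Cnga2, Gnal, Adcy3, Ano2, Stoml3), all also in the pathway list, summed to 6823 to 9054 CPM in the OC controls and 17366 to 25184 after octanal. None was at 0 in any library of this labelled olfactory epithelium.

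Markers of blood and bone cells also moved with the odors. The 4 red blood cell markers (Hba-a1, Hbb-bs, Hbb-bt, Alas2) summed to 52266 to 61439 CPM in the OC controls. After octanal the sum was 4923 to 15137 CPM, after cis-3-hexenol 12856 to 19338 and after their mixture 5879 to 13536, and 4 of 4 fell in each, where 14.4%, 3.16% and 14.8% of all genes were called lower. In the AD controls the sum was 10539 to 14025 CPM. It was 1695 to 8866 CPM after acetophenone, 26360 to 28669 after decanal and 20910 to 25263 after the mixture, with 0 of 4 called against the controls. Floral raised 3 of 4, from sums of 19723 to 22199 CPM to sums of 24904 to 49526 CPM. The 4 bone and osteoclast markers (Ctsk, Acp5, Mmp9, Ibsp) fell, 4 of 4, in octanal, cis-3-hexenol, OC mixture and mint captures, and 3 of 4 fell in acetophenone and floral-mint mixture captures. Of all genes, 1.27% were called lower after acetophenone, 11.5% after decanal, 10.4% after the AD mixture, 5.35% after floral, 4.07% after mint and 3.22% after the floral-mint mixture. In the octanal against decanal comparison 4 of 4 red blood cell, 4 of 4 bone, 4 of 4 neutrophil and 3 of 3 basal cell markers were lower, and 15 of 19 transduction genes and 5 of 6 mature neuron markers were higher (median differences 1.06 and 1.16). Against cis-3-hexenol, 12 of 19 transduction genes were higher with octanal (12% of all genes higher, 8.98% lower) and 11 with the OC mixture (7.86% and 5.03%). None of the red blood cell markers was at 0 in any library, and the part of these markers in the members' results was not tested.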

How the data were processed

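RNA from 36 pS6 captures, 3 biological replicates in each of 12 groups, was sequenced from stranded libraries, per the labels' protocols. The values the authors deposited are expected counts per gene. The submitters' processing notes name the build GRCm39, Salmon 1.10.1, STAR 2.7.10b and R 4.4.2. The step that made the counts and the gene annotation are not given in the sources used here. Expected counts can split a read between similar genes. Per library, 11.1% to 16.4% of the values, zeros included, were fractional, and values were rounded for the tests.

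Of 57010 identifiers, 52029 were named by GENCODE vM21 (GRCm38), and RefSeq gave the MOR family names. The members and lists were chosen with earlier results of these data known. Each set was fitted alone, with 12 libraries and 4 groups, in edgeR 4.0.16 under R 4.3.3 (filterByExpr with minimum count 10 and minimum total 15, TMM scaling, prior count 0.125, 2-sided quasi-likelihood tests, Benjamini-Hochberg adjustment over all genes tested, called at 0.05). A joint fit of 24 libraries compared octanal with decanal. Shares over all genes are not given for acetophenone or the AD mixture against decanal, the OC mixture against octanal, or comparisons among FM exposures. CPM used TMM-scaled library sizes. Fits were tested on simulated data. Near-identical copies were transcripts with at least 95% identity over at least 200 bases.

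Named members were, per odor against control, up to 8 called higher and 4 called lower with the smallest p and no overlap between groups, up to 4 each way in other comparisons, the 5 highest and 5 lowest control levels per kb, members called higher in 4 or more of 9 exposures, and near-identical partners. Olfr469, Olfr503, Olfr504, Olfr512, Olfr514, Olfr519, Olfr520, Olfr521 and Olfr538 were named outside this rule, after their values were seen. Alternatives were DESeq2 1.42.0, relative log expression (RLE) scaling, no filter, scaling to the median receptor gene, a replicate block, summed copies and leaving out each library. Lists for the pathway and for mature neuron, red blood cell, bone, neutrophil and basal cell markers were counted in the same fits.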

Additional observations from a re-analysis of the deposited data

How the results depend on the processing

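With DESeq2 the counts of called members were 8 for cis-3-hexenol against controls (main 5), 2 for the OC mixture against octanal (main 1) and 2 for the floral-mint mixture against mint (main 1). Without the filter on low counts, they were 11 for cis-3-hexenol, 2 for the OC mixture against octanal, 2 for the floral-mint mixture against floral, 3 against mint and 4 for floral against mint, and more members were tested there. With a replicate block, the count for floral against mint was 1, and no other count moved by over 1.5 times. The libraries share only a number (same-numbered deviations from the group means correlated at -0.194 to 0.187), and 11 of 157 member calls were lost with the block. Leaving out 1 library gave 3 to 5 members for the AD mixture against decanal and 1 to 2 for floral against mint. Of the 157 member calls, 24 were lost with the median receptor gene scaling, 4 without the filter and 0 with RLE. DESeq2 lost 0 of the 155 for which it gave an adjusted p. Over all left-out libraries 161 of 996 were lost. With near-identical copies summed, the difference of Olfr509 between the AD mixture and acetophenone was -0.029 (adjusted p = 0.863), the one reversal among these calls, where its counts are summed with those of other genes. Where a group has 0 to 3 counts, its change has wide counting limits at this depth, and 3 libraries a group limit small changes.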
